A study of Mus musculus with 18 samples.

Results

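The bone marrow of 6 CCAT2-GT mice was compared with that of 4 CCAT2-T mice, 10 of the 18 arrays of the series, across all genes that could be named. Groups were taken from the sample titles, and 14505 genes were tested. All mice were of the C57Bl6 strain, and the CCAT2 mice had been engineered to overexpress the G or the T allele of CCAT2 throughout the body. CCAT2 is a long non-coding RNA of human origin. CCAT2-GT mice carry the label DRAI+ and CCAT2-T mice the label DRAI-, a status the labels do not spell out. The labels do not say how the GT animals were derived, which promoter drives the overexpression, how many founder lines were used, or the age and health of any mouse. The series also holds 4 wild-type (WT) mice and 4 CCAT2-G mice, which are DRAI- as well. They entered the model only to share its estimate of the spread and serve below as reference values.

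Bone marrow makes all blood cells. Stem cells give rise to progenitors, and these feed the neutrophil, monocyte, eosinophil, erythroid, megakaryocyte and B-lymphoid lines, each known by its own granule proteins, receptors and transcription factors. CCAT2 lies in a gene desert near MYC, and its alleles are known from cancer genetics, so MYC targets, WNT signalling and the Polycomb enzyme Ezh2 were described along with the lineages. In bulk marrow, fewer cells of a type and less RNA per cell cannot be told apart.

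Total RNA was hybridised to Affymetrix arrays, 1 array per mouse, each titled a biological replicate, and values are log2 levels normalized by RMA. Nothing in the labels says whether littermates were used, so the p-values measure the spread between these animals only. Array medians ran from 4.27 to 4.40. The interquartile range fell below 3.1 on 5 arrays, here called narrow, which were CCAT2-T replicates 1 and 2 and 3 arrays of WT or CCAT2-G mice. No CCAT2-GT array was narrow. Xist, which coats and shuts down the inactive X of female cells, was above 8 in CCAT2-GT replicates 2, 3 and 5 and in CCAT2-T replicate 3, so the groups also differ in their mix of sexes. The arrays with the highest mean level of the stroma, bone and endothelium list were CCAT2-GT replicates 4 and 6 and 1 WT array, here called stroma-rich. Results without these arrays, or with array spread (narrow or not) as a block, were computed after the data had been seen. No probeset carries the name CCAT2, so its overexpression was not checked here. The tissue label was borne out by its markers: the neutrophil granule genes Mpo and Ltf had group means of 12.35 and 13.05 in CCAT2-GT and 12.09 and 13.12 in CCAT2-T mice.

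No gene passed an adjusted p of 0.05 in limma's moderated test (0% of 14505). The smallest adjusted p of a gene was 0.354. When every probeset was tested instead, named or not, 1 of 31571 passed (0.00317%), a probeset with no single gene symbol. At an unadjusted p under 0.05 there were 1827 genes (12.6%), against 725 that chance gives for independent genes. Of these, 991 (6.83% of all genes) were higher and 836 (5.76%) lower in CCAT2-GT marrow. The balance of directions was not stable: after a further quantile normalization 872 were higher and 1192 lower, without the filter on low genes 1047 and 1172, with array spread as a block 435 and 731, and without CCAT2-T replicate 3 634 and 885. Median centring kept it, with 1017 higher and 689 lower. Without CCAT2-T replicate 1 there were 1119 such genes, and without the stroma-rich arrays 932. With only the 3 CCAT2-GT mice whose identifiers carry the letter G, replicates 1 to 3, there were 517. With only the 3 whose identifiers carry the letter T, replicates 4 to 6, there were 2063, and replicates 4 and 6 are stroma-rich. The labels do not explain these letters. With array weights 3793 genes had an unadjusted p under 0.05 and 2 passed the adjusted test, Cdk3 and 6820431F20Rik. In 312 genes (2.15%) the groups did not overlap, with every CCAT2-GT mouse above every CCAT2-T mouse in 103 (0.71%) and below in 209 (1.44%). Over all genes the median difference was -0.01, and 47.6% of genes had a higher mean in CCAT2-GT mice. The values below are therefore differences between group means, given with their SE from the fit; none passed the adjusted test.

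**Figure D1:**
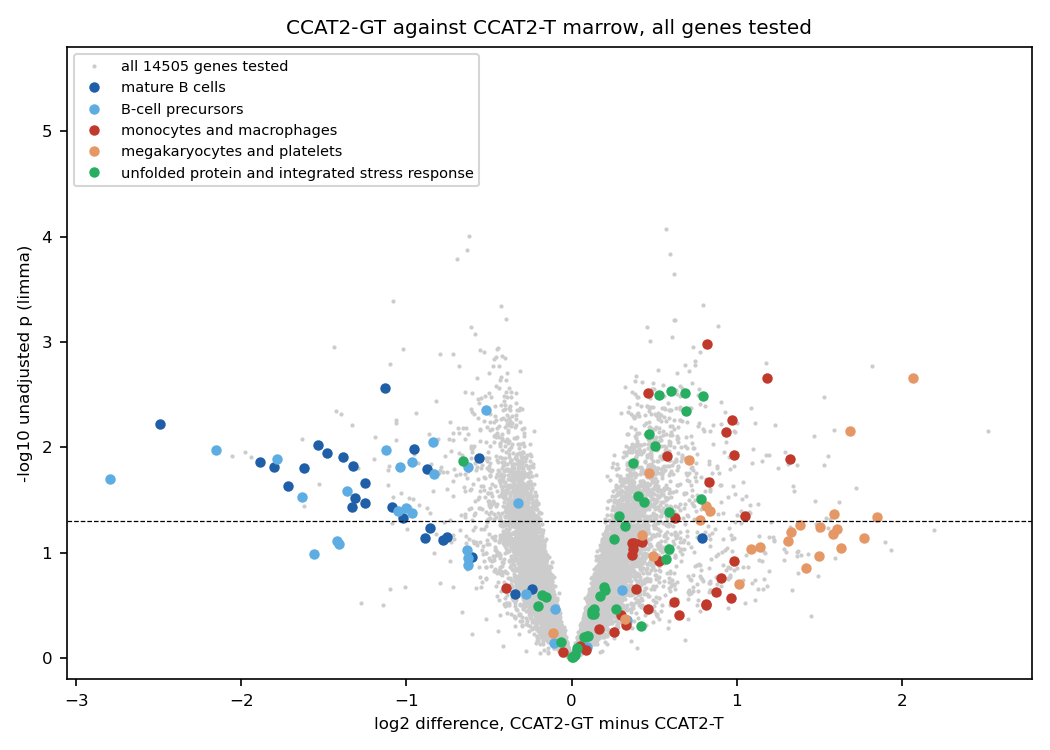
Each point is a gene, with the log2 difference (CCAT2-GT minus CCAT2-T) on the horizontal axis and -log10 of limma's unadjusted p on the vertical axis; the dashed line marks the unadjusted threshold, and colours mark 5 gene lists. B-cell genes lie to the left, monocyte, megakaryocyte and stress-response genes mostly to the right, and no gene passed the adjusted threshold.

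Among the genes of smallest p with higher levels in CCAT2-GT marrow, Nedd4 led. It encodes a ubiquitin ligase that marks membrane proteins for removal. Its log2 level ran from 8.11 to 8.56 with a median of 8.30 in the 6 CCAT2-GT mice, and was 7.81, 7.74, 7.65 and 7.82 in the 4 CCAT2-T mice. The groups did not overlap, and the difference was 0.57 ± 0.11 (SE; limma adjusted p = 0.354). Xrn2, the nuclear exonuclease that ends transcription behind RNA polymerase, ran from 7.58 to 8.11 with a median of 7.77, against 7.35, 7.18, 7.16 and 7.10. It did not overlap either and differed by 0.59 ± 0.12, or by 0.31 as the mean of its probesets. WT mice had mean levels of 8.19 for Nedd4 and 7.81 for Xrn2, close to the CCAT2-GT means of 8.33 and 7.79.

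B2m, the light chain of MHC class I on nearly all nucleated cells, ran from 12.23 to 12.87 (median 12.42) in CCAT2-GT mice and was 11.79, 12.03, 12.01 and 12.15 in CCAT2-T mice. Every CCAT2-GT mouse lay above every CCAT2-T mouse, by 0.46 ± 0.11 on average. Fcgr4, an activating Fc receptor of monocytes and neutrophils, ran from 7.83 to 8.81 (median 8.24) against 7.51, 7.45, 7.16 and 7.84, with a difference of 0.82 ± 0.21. Its groups touched, since the highest CCAT2-T mouse reached the lowest CCAT2-GT mouse. Sla, a Src-like adaptor that dampens receptor signalling in blood cells, differed by 0.88 ± 0.22 and also overlapped. Slc7a7, an amino acid transporter of macrophages, differed by 0.63 ± 0.15 and Cdc42ep2, an effector of the GTPase Cdc42, by 0.62 ± 0.15, both without overlap. Aga, a lysosomal enzyme that breaks down glycoproteins, differed by 0.48 ± 0.12 without overlap. The metabolic enzymes Aldh7a1 (0.62 ± 0.14) and Bpnt1 (0.61 ± 0.15) completed the 10 genes of smallest p, and both overlapped. As the mean of its probesets Aldh7a1 was 0.19, with 2 of 3 probesets of the same sign. Each of these 8 genes had an adjusted p of 0.354 in limma.

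In the other direction, Cdk3, a cyclin-dependent kinase, had the smallest p. It ran from 4.08 to 4.56 (median 4.37) in CCAT2-GT mice and was 4.93, 4.99, 5.10 and 4.79 in CCAT2-T mice. All 6 CCAT2-GT mice were below all 4 CCAT2-T mice, by -0.62 ± 0.13 (limma adjusted p = 0.354). Add1, adducin, which links spectrin to actin under the membrane, ran from 8.68 to 9.31 (median 9.07) against 9.43, 9.63, 10.06 and 9.81. It did not overlap, its 3 probesets had the same sign, and the difference was -0.69 ± 0.15, or -0.40 as the mean of its probesets. Its WT mean was 9.06 and its CCAT2-G mean 8.69, so the CCAT2-T mice were the high group of the 4.

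Dnajc7, a co-chaperone of Hsp70 and Hsp90, ran from 6.85 to 7.90 (median 7.45) in CCAT2-GT mice against 8.51, 8.23, 8.72 and 8.38 in CCAT2-T mice. The difference was -1.08 ± 0.25, the groups did not overlap, and here the WT mean of 8.08 and the CCAT2-G mean of 8.34 were nearer the CCAT2-T mean of 8.46 than the CCAT2-GT mean of 7.38. Il2rb, the shared beta chain of the interleukin receptors that sustain natural killer cells, ran from 4.58 to 6.06 (median 5.46) against 6.17, 6.17, 6.93 and 6.25. It differed by -1.02 ± 0.27 without overlap. Ddc, the enzyme that makes dopamine and serotonin, differed by -0.63 ± 0.13, the mitochondrial carrier Slc25a48 by -0.43 ± 0.10, the glycan-trimming enzyme Manea by -0.40 ± 0.10 and the calcium channel subunit Cacna1g by -0.61 ± 0.15, all without overlap. Mss51, a muscle mitochondrial protein (-0.59 ± 0.15), and Crabp2, a carrier of retinoic acid (-0.45 ± 0.12), overlapped. Ddc and Crabp2 were near the floor of the genes tested. Their means were 3.49 and 3.28 in CCAT2-GT mice and 4.12 and 3.73 in CCAT2-T mice, with the filter at 3.30. The adjusted p was 0.354 in limma for each of the 10 genes.

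**Figure D2:**
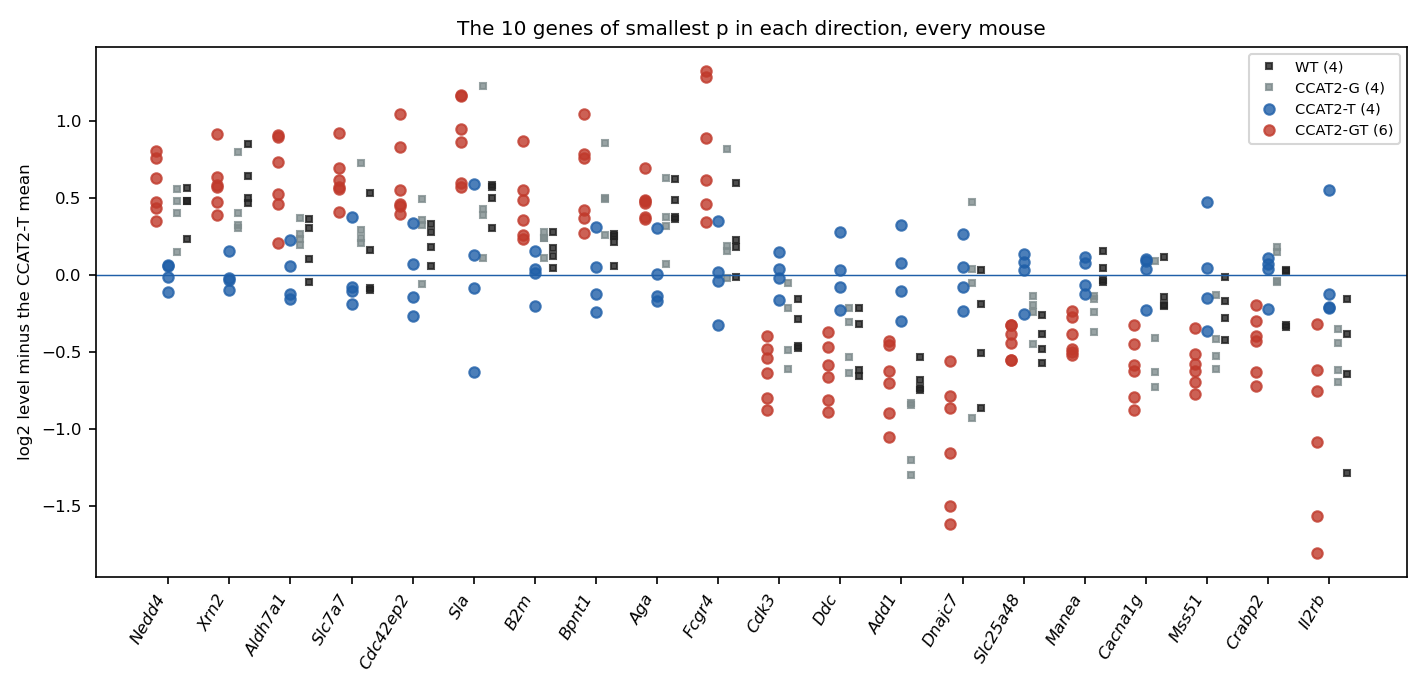
Log2 level of each mouse minus the CCAT2-T mean, for the 10 genes of smallest unadjusted p in each direction; red points are the 6 CCAT2-GT mice, blue the 4 CCAT2-T mice, grey and black squares the CCAT2-G and WT mice. WT and CCAT2-G mice sit near the CCAT2-GT mice for Add1 and Xrn2 and nearer the CCAT2-T mice for Dnajc7.

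Whether such genes set CCAT2-GT or CCAT2-T mice apart from the rest differed from gene to gene. Of the 1827 genes with an unadjusted p under 0.05, the WT mean was nearer the CCAT2-GT mean in 1102 (60.3%), beside 58.2% of all genes. The CCAT2-G mean was nearer the CCAT2-GT mean in 1127 (61.7%), beside 54.2% of all genes. Of the 312 genes without overlap the WT mean was nearer the CCAT2-GT mean in 156 and the CCAT2-T mean in the other 156. For the CCAT2-G mean these counts were 147 and 165.

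Lineage and pathway genes were described as 33 lists with 898 measured entries. Lists and members were chosen with earlier results of these data known. A count above the background may therefore be partly fixed by that choice and is not a test. A list is given by how many members were higher or lower, how many had an unadjusted p under 0.05 and how many did not overlap, and by its median difference, to be set beside 47.6% higher and a median of -0.01 over all genes. A mouse's list score is the mean log2 level of the members. The 5 lists of largest positive median were megakaryocytes, monocytes, stroma, eosinophils with basophils and mast cells, and primary granules. The largest negative medians were those of mature B cells, B-cell precursors and skeletal muscle.

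**Figure D3:**
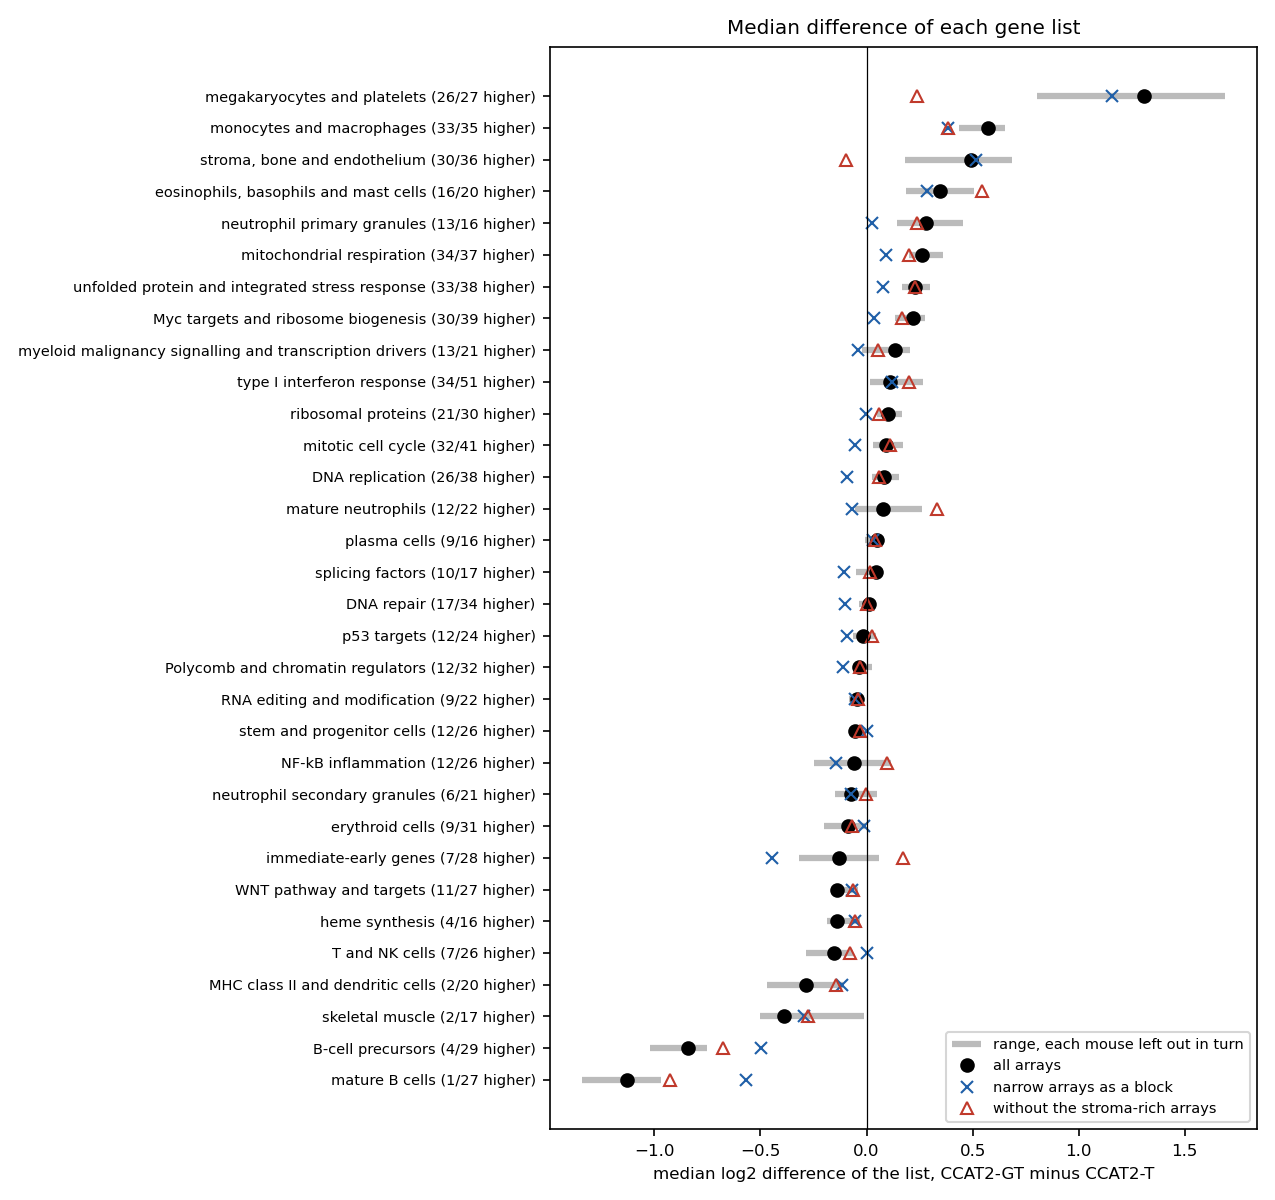
Median log2 difference (CCAT2-GT minus CCAT2-T) of each gene list on all arrays (black), its range when each mouse is left out in turn (grey), with array spread as a block (blue crosses) and without the stroma-rich arrays (red triangles). Both B-cell lists lie lowest in each of these settings, and with the block immediate-early genes follow them at -0.45.

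Mature B-cell genes showed the lowest median of the lists. Of 27 measured members 26 were lower in CCAT2-GT marrow, 19 with an unadjusted p under 0.05 (background 5.76%) and 3 without overlap (background 1.44%), and the median difference was -1.13. Cd79a, which carries the signal of the B-cell receptor inward, ran from 4.83 to 6.99 (median 5.64) in CCAT2-GT mice and was 8.93, 8.49, 7.32 and 8.31 in CCAT2-T mice. All CCAT2-GT mice were lower than all CCAT2-T mice, by -2.49 ± 0.80 (limma adjusted p = 0.354). Its partner Cd79b ran from 6.57 to 8.66 (median 7.70) against 9.81, 9.34, 8.64 and 9.09. It differed by -1.54 ± 0.53 and its groups overlapped narrowly. Siglecg, a sialic acid receptor that restrains the B-cell receptor, differed by -0.96 ± 0.33 without overlap, and Ltb, lymphotoxin beta, by -1.13 ± 0.33 with overlap. The other member without overlap was Cd72, an inhibitory co-receptor, at -1.48 ± 0.52. The 1 member that was higher was Ighm, the heavy chain of immunoglobulin M, at 0.79 ± 0.41; it and Cd72 are named after their values were seen.

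The mature B-cell scores were 6.95, 6.07, 7.58, 6.12, 7.35 and 6.56 in CCAT2-GT replicates 1 to 6 and 8.28, 8.10, 7.30 and 7.80 in CCAT2-T replicates 1 to 4. Among the CCAT2-GT mice 4 lay below every CCAT2-T mouse, while replicates 3 and 5 lay above CCAT2-T replicate 3. These 3 mice are Xist-high, and so is CCAT2-GT replicate 2, which had the lowest score of the 10 mice. The 2 highest scores in the CCAT2-T group came from its narrow arrays. The median difference of the list was -0.57 with array spread as a block, -0.80 without them and -1.55 without the Xist-high arrays; the part of array spread and sex in the result was not tested.

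B-cell precursor genes were lower in the same mice. Of 29 members 25 were lower, 16 with an unadjusted p under 0.05 (background 5.76%) and 7 without overlap (background 1.44%), with a median of -0.84 (-0.50 with array spread as a block). Tcf3, which encodes the E2A factors that start the B-cell program, ran from 6.58 to 7.00 (median 6.85) in CCAT2-GT mice and was 7.26, 7.19, 7.25 and 7.67 in CCAT2-T mice. The groups were apart, and the difference was -0.52 ± 0.16, with 3 of 3 probesets of the same sign. Bach2, a repressor that holds B cells short of the plasma cell state, ran from 5.11 to 8.05 (median 6.78) against 9.25, 9.15, 8.20 and 8.69. It differed by -2.15 ± 0.76 without overlap. Bcl7a, a chromatin remodelling subunit, differed by -1.13 ± 0.40 and Cecr2, a bromodomain protein, by -0.84 ± 0.29, both without overlap. The other 3 members without overlap were Akap12, a kinase scaffold (-1.78 ± 0.65), Foxo1, a factor needed for antigen receptor rearrangement (-0.97 ± 0.35), and Smarca4, the motor of a chromatin remodelling complex (-0.63 ± 0.23), named after their values were seen. Vpreb1, the surrogate light chain, spread widely, from 3.99 to 7.92 (median 7.10) in CCAT2-GT mice against 8.31, 8.35, 6.74 and 8.01. Its difference of -1.56 ± 0.91 had an adjusted p of 0.459 in limma, and CCAT2-GT replicates 2 and 6 were its low mice.

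Plasma cell genes were divided. Of 16 members 9 were higher and 7 lower, with a median of 0.05, and 5 of the higher ones had an unadjusted p under 0.05 (background 6.83%). Prdm1, the master regulator of plasma cells, ran from 3.78 to 4.76 (median 4.06) against 3.43, 3.83, 3.59 and 3.63, a difference of 0.51 ± 0.17 with a slight overlap. Edem1, which feeds misfolded glycoproteins to degradation, is shared with the stress-response list and is described there. Of 16 immunoglobulin genes with a name 12 were higher and 4 lower, with a median of 0.12 and a range from -2.05 to 1.17. Only 1 had an unadjusted p under 0.05 (background 12.6% in either direction).

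Genes of antigen presentation and of T and NK cells were also mostly lower. In the MHC class II and dendritic cell list 18 of 20 members were lower, 2 with an unadjusted p under 0.05 (background 5.76%), with a median of -0.29. The median was -0.11 without CCAT2-GT replicate 2 and -0.12 with array spread as a block. H2-DMb2, which helps load peptides on class II, differed by -1.08 ± 0.46 and Ciita, the switch of class II transcription, by -0.65 ± 0.30, with limma adjusted p of 0.376 and 0.39. The scores overlapped: 4 CCAT2-GT mice lay below all CCAT2-T mice and the other 2 above them all. In the T and NK cell list 19 of 26 members were lower, with a median of -0.16 that was 0.00 with array spread as a block. Cd3e, a chain of the T-cell receptor complex, ran from 6.02 to 6.64 against 6.84, 6.93, 6.52 and 6.46 and differed by -0.31 ± 0.21. Eomes, a factor of NK and memory T cells, differed by -0.49 ± 0.21, and Nkg7, a granule protein found in NK cells and also in neutrophil precursors, by 0.59 ± 0.20.

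**Figure D4:**
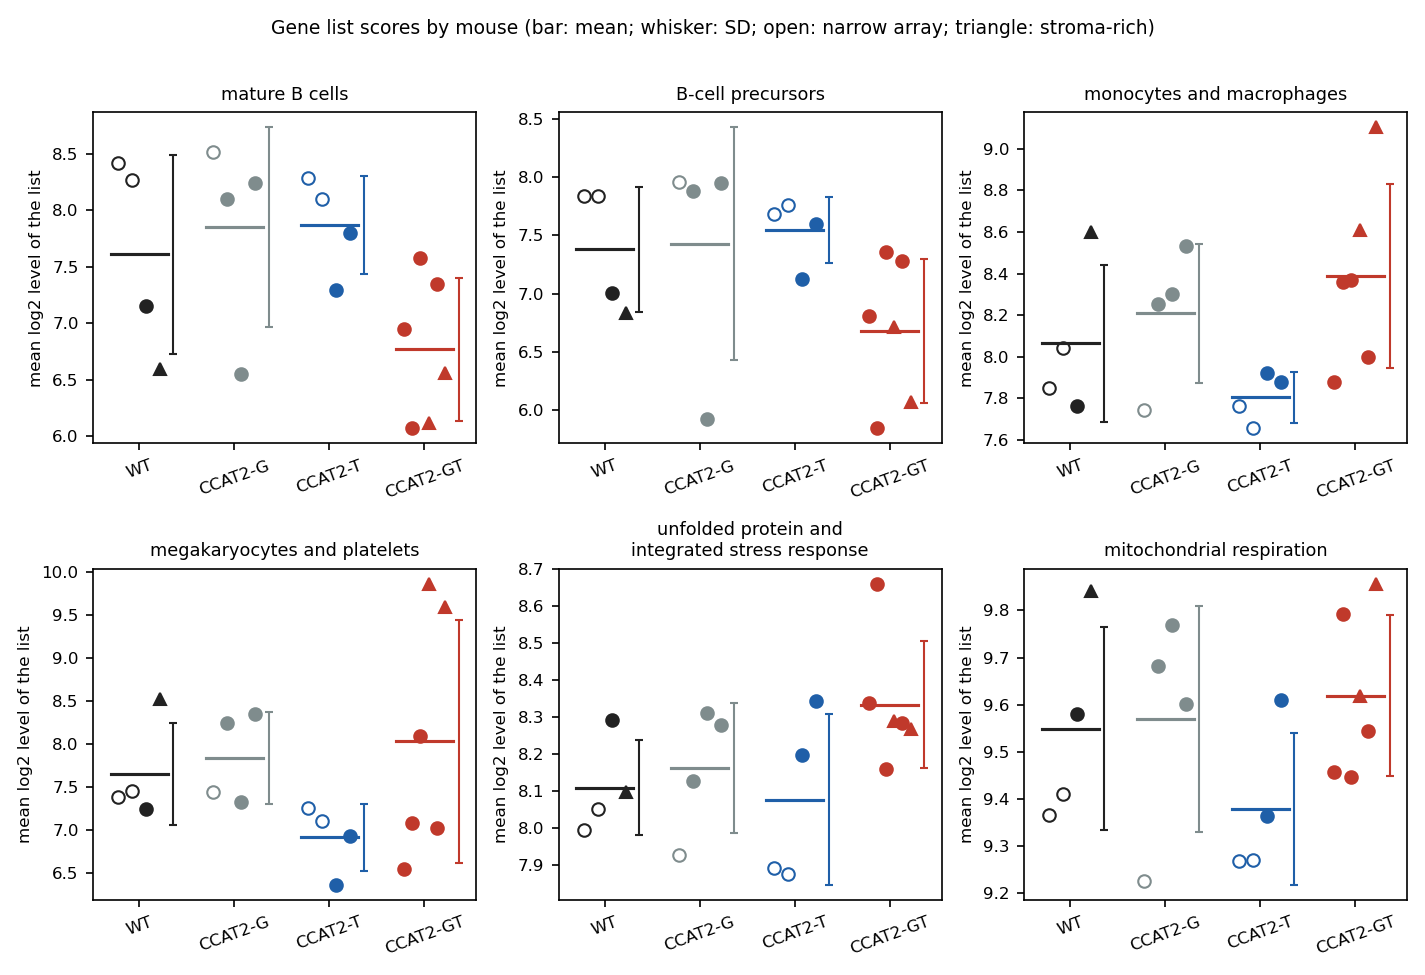
Scores of 6 gene lists (mean log2 level of the members) for every mouse of the 4 groups; bars are group means, whiskers SD, open circles narrow arrays and triangles stroma-rich arrays. CCAT2-GT mice spread from 6.07 to 7.58 for mature B-cell genes and from 6.54 to 9.87 for megakaryocyte genes, and each of the 6 scores overlaps between CCAT2-GT and CCAT2-T mice.

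Monocyte and macrophage genes were higher in CCAT2-GT marrow. Of 35 members 33 were higher, 11 with an unadjusted p under 0.05 (background 6.83%) and 4 without overlap (background 0.71%), with a median of 0.57. Clec4a3, a C-type lectin of monocytes, ran from 7.42 to 8.55 (median 7.96) in CCAT2-GT mice and was 6.17, 6.13, 7.39 and 7.35 in CCAT2-T mice. The groups did not overlap, though CCAT2-T replicates 3 and 4 came close to the lowest CCAT2-GT mouse, and the difference was 1.19 ± 0.33. It was 0.77 with array spread as a block. Fcgr1, the high-affinity IgG receptor, ran from 6.21 to 7.79 (median 6.68) against 5.56, 5.60, 6.20 and 5.93 and differed by 0.97 ± 0.31. Ctss, a lysosomal protease of antigen-presenting cells, ran from 10.96 to 11.41 (median 11.23) against 10.69, 10.50, 10.90 and 10.92 and differed by 0.46 ± 0.14. Neither overlapped, and each of these genes had an adjusted p of 0.354 in limma. Cd68, a lysosomal glycoprotein of macrophages and the other member without overlap, differed by 0.93 ± 0.31 and is named after its values were seen. Csf1r, the receptor that drives monocyte survival, overlapped and differed by 0.37 ± 0.21, which was 0.12 with array spread as a block and 0.04 without the narrow arrays.

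By mouse, the monocyte scores were 7.88, 8.36, 8.37, 8.61, 8.00 and 9.10 in CCAT2-GT replicates 1 to 6 and 7.76, 7.66, 7.92 and 7.88 in CCAT2-T replicates 1 to 4. All CCAT2-GT mice but replicate 1 lay above every CCAT2-T mouse, and the 2 highest were the stroma-rich replicates 4 and 6. For reference, WT replicates 1 to 4 scored 7.85, 8.04, 7.76 and 8.60, and CCAT2-G replicates 1 to 4 scored 7.74, 8.25, 8.30 and 8.54. The list median was 0.38 without the stroma-rich arrays and 0.39 with array spread as a block.

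The granulocyte lists gave smaller differences. Primary granule genes, made by promyelocytes, were higher in 13 of 16 cases with a median of 0.28, which was 0.02 with array spread as a block and -0.01 without them. Mpo, myeloperoxidase, ran from 11.66 to 12.95 against 11.79, 11.88, 12.17 and 12.53, a difference of 0.26 ± 0.24 inside the range of the mice. Elane, neutrophil elastase, differed by 0.03 ± 0.35. Secondary granule genes, made by later precursors, were lower in 15 of 21 cases with a median of -0.07. Ltf, lactoferrin, differed by -0.07 ± 0.20, and Olfm4, a protein of a subset of neutrophils, by -0.79 ± 0.30 (limma adjusted p = 0.354), with CCAT2-T replicate 3 at 9.23 below its 3 group mates, which were between 10.16 and 10.24. Adpgk, a glycolytic kinase counted in the same list, differed by -0.73 ± 0.35. Genes of mature neutrophils were split 12 to 10, with a median of 0.08. The alarmin S100a8 differed by -0.08 ± 0.06 and the decoy receptor Il1r2 by 0.88 ± 0.33, the latter with a slight overlap.

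Eosinophil, basophil and mast cell genes were higher in 16 of 20 cases with a median of 0.35. Prg2, the major basic protein of eosinophil granules, ran from 6.81 to 12.24 (median 9.46) in CCAT2-GT mice against 8.24, 9.02, 5.63 and 7.08 in CCAT2-T mice. CCAT2-GT replicates 3, 4 and 5 were above 10, and the difference of 2.19 ± 1.10 had an adjusted p of 0.414 in limma. Ccr3, the eotaxin receptor, ran from 3.09 to 6.39 (median 4.80) against 3.73, 4.04, 3.23 and 3.03 and differed by 1.36 ± 0.50. The mast cell tryptase Tpsb2 had the opposite sign, at -0.25 ± 0.12. Without the Xist-high arrays the list median was 0.01.

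Megakaryocyte and platelet genes had the largest positive median, 1.31. Of 27 members 26 were higher, 9 with an unadjusted p under 0.05 (background 6.83%) and 1 without overlap (background 0.71%). That gene was Thbs1, thrombospondin, a platelet granule protein. It ran from 7.30 to 11.11 (median 8.76) in CCAT2-GT mice and was 7.11, 6.95, 7.05 and 7.20 in CCAT2-T mice, a difference of 2.07 ± 0.58. Pf4, platelet factor, ran from 8.00 to 12.35 (median 9.94) against 9.53, 9.41, 8.16 and 8.82; it overlapped and differed by 1.31 ± 0.70 (limma adjusted p = 0.428). Selp, the adhesion molecule P-selectin, differed by 1.69 ± 0.55, the tetraspanin Cd9 by 0.71 ± 0.26 and the transcription factor Fli1 by 0.47 ± 0.18, all with overlap.

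The megakaryocyte scores were 6.54, 7.07, 8.09, 9.87, 7.02 and 9.59 in CCAT2-GT replicates 1 to 6 and 7.26, 7.10, 6.36 and 6.93 in CCAT2-T replicates 1 to 4. For reference, WT replicates 1 to 4 scored 7.38, 7.46, 7.24 and 8.53, and CCAT2-G replicates 1 to 4 scored 7.44, 8.24, 7.32 and 8.35. CCAT2-GT replicates 1, 2 and 5 lay below every WT and CCAT2-G mouse. CCAT2-GT replicates 4 and 6 stood highest and were the stroma-rich arrays, and 3 of the CCAT2-GT mice lay within the CCAT2-T range. Those arrays were chosen by the score of the stroma, bone and endothelium list, so its high level there was fixed by the choice. In that list 30 of 36 members were higher, with a median of 0.49. The stroma scores were 4.79, 5.83, 5.62, 6.83, 5.14 and 7.44 against 5.94, 5.77, 4.81 and 5.13. With only CCAT2-GT replicates 1 to 3 (letter G) the median was 0.32 for the megakaryocyte list and -0.07 for the stroma list. With only CCAT2-GT replicates 4 to 6 (letter T) these medians were 2.30 and 1.04. Without the stroma-rich arrays the median was 0.24 for the megakaryocyte list and -0.09 for the stroma list. Apoe, a lipid carrier of macrophages and stroma, was 0.38 without them and 1.05 ± 0.45 with them. Pecam1, an endothelial and platelet adhesion molecule, was 0.21 without them and 0.47 ± 0.22 with them. For the stroma list and its members Apoe and Pecam1, a smaller difference without these arrays is partly built into the choice of arrays. The part of sampled bone and vessel tissue in these results was not tested.

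Erythroid genes showed little difference. Of 31 members 22 were lower with a median of -0.09, and none had an unadjusted p under 0.05. Slc4a1, the anion exchanger of red cells, differed by -0.25 ± 0.15, the blood group protein Ermap by -0.31 ± 0.19, and Klf1, the master factor of globin genes, by -0.15 ± 0.25. Heme synthesis genes were lower in 12 of 16 cases with a median of -0.14, led by Cpox at -0.36 ± 0.22. Gata1, shared by red cells and megakaryocytes, differed by 0.13 ± 0.20 and was -0.07 without the stroma-rich arrays.

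Stem and progenitor genes were split, with 12 higher and 14 lower and a median of -0.05. Hoxb4, a homeobox gene of stem cell renewal, ran from 4.33 to 4.83 (median 4.70) against 5.20, 4.95, 5.11 and 4.88, a difference of -0.36 ± 0.12 without overlap. Myct1, a gene of stem cells and endothelium, differed by 0.50 ± 0.17. Kit, the stem cell factor receptor, differed by 0.33 ± 0.26 and Cd34, a progenitor surface protein, by 0.10 ± 0.39; with array spread as a block they were -0.09 and -0.41. Skeletal muscle genes were lower in 15 of 17 cases with a median of -0.39, which was -0.01 without CCAT2-T replicate 1, whose muscle score was 5.79 against 4.35 to 4.67 in its group mates. Myoz1, a protein of the muscle Z-line, was 5.68 and 5.46 on CCAT2-T replicates 1 and 2 and between 4.55 and 4.88 on all other arrays of the comparison.

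Stress genes, those of the unfolded protein response and of the integrated stress response, were higher in CCAT2-GT marrow in 33 of 38 cases. Those of the unfolded protein response are switched on when misfolded proteins build up in the endoplasmic reticulum. Of the 33, 13 had an unadjusted p under 0.05 (background 6.83%) and 2 did not overlap (background 0.71%), and the list median was 0.23. Edem1, which directs misfolded glycoproteins to degradation, ran from 8.58 to 9.53 (median 8.91) in CCAT2-GT mice and was 7.98, 8.15, 8.39 and 8.56 in CCAT2-T mice. All CCAT2-GT mice lay above all CCAT2-T mice, of which replicate 4 came close, and the difference was 0.69 ± 0.20. Dnajc3, the co-chaperone that restrains the kinase PERK, ran from 8.41 to 9.01 (median 8.54) against 7.99, 7.62, 8.32 and 8.24. It differed by 0.60 ± 0.17 without overlap, and 5 of 5 probesets had the same sign. Pdia3, which forms disulfide bonds in glycoproteins, differed by 0.79 ± 0.23 and Edem2, a mannosidase of the same degradation route, by 0.53 ± 0.16, both with overlap. Each had an adjusted p of 0.354 in limma. Syvn1, the ubiquitin ligase of that route, was lower by -0.66 ± 0.24 and is named because it alone went the other way among the members with an unadjusted p under 0.05.

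The stress scores were 8.34, 8.66, 8.16, 8.29, 8.28 and 8.27 in CCAT2-GT replicates 1 to 6 and 7.89, 7.88, 8.20 and 8.34 in CCAT2-T replicates 1 to 4. Only CCAT2-GT replicate 2 lay above all CCAT2-T mice, and the 2 low CCAT2-T scores came from the narrow arrays. With array spread as a block the list median was 0.08, with Edem1 at 0.49, Dnajc3 at 0.38 and Pdia3 at 0.45.

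Promoters of 4 stress genes are shown because they hold the endoplasmic reticulum stress element, which reads CCAAT, then a spacer of 9 bases, then CCACG, searched on both strands, and because they cover both directions of difference. The sequences are RefSeq's, on GRCm38.p6, from 250 bases before to 50 after the start of the gene, each written along the strand of its gene with the match in capitals. They lie at chr14:118937682-118937981 (Dnajc3, plus strand), chr11:50325624-50325923 (Canx, minus strand), chr15:88819396-88819695 (Creld2, plus strand) and chr19:6046326-6046625 (Syvn1, plus strand). The Creld2 match reads on the opposite strand.
Dnajc3: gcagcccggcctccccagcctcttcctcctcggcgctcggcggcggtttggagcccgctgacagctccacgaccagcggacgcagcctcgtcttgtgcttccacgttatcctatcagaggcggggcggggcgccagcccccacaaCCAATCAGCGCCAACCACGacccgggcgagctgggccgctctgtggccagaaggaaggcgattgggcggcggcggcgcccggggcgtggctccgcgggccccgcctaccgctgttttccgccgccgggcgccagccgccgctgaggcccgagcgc
Canx: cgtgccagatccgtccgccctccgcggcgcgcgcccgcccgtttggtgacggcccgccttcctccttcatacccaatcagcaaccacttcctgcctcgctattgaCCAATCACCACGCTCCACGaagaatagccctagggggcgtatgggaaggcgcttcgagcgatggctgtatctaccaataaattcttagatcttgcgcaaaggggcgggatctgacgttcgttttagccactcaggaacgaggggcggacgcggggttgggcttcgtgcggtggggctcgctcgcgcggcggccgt
Creld2: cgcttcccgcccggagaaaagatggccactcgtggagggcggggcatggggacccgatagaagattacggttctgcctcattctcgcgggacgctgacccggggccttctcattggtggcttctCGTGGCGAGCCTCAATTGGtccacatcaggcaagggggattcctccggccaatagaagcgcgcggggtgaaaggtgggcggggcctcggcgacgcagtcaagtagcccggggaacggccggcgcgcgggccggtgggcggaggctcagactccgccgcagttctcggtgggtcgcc
Syvn1: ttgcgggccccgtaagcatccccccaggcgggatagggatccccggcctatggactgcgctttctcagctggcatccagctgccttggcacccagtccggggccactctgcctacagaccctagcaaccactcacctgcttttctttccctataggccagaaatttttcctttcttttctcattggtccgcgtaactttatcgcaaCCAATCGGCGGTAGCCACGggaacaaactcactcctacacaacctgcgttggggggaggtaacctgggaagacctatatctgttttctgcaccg

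Of the 38 stress genes 34 had a promoter in the RefSeq table, and 9 of these held the element in at least 1 promoter. The same held for 37 of all 27025 genes in the table (0.137%), or 39 of 32851 promoters (0.119%). These shares follow from which genes the list holds. They use no level of any mouse and say nothing about the difference between the groups. The 9 genes were Hspa5, Hsp90b1, Calr, Canx, Pdia6, Dnajc3, Syvn1, Derl3 and Creld2. All but Syvn1 had a higher mean in CCAT2-GT mice, beside 33 of 38 in the whole list. Canx, a lectin chaperone of the reticulum, differed by 0.37 ± 0.14, Creld2, a secreted stress protein, by 0.59 ± 0.27, and the chaperone Hspa5 by 0.20 ± 0.15. For the mature B-cell list the octamer ATTTGCAT, searched on both strands, was found in 1 of 21 genes, Blnk, against 1.97% of all genes and 1.74% of all promoters. A match describes the letters in this window and is not a site shown to be bound.

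Type I interferon response genes were higher in 34 of 51 cases with a median of 0.11, 10 of them with an unadjusted p under 0.05 (background 6.83%) and 1 without overlap (background 0.71%). The median was 0.01 without CCAT2-GT replicate 3 and 0.26 without CCAT2-T replicate 3. The gene without overlap was Parp12, an antiviral ADP-ribosyltransferase. It ran from 6.34 to 7.24 (median 6.61) in CCAT2-GT mice against 5.90, 6.19, 6.17 and 6.09 in CCAT2-T mice and differed by 0.61 ± 0.20. Ifi204, a DNA sensor, differed by 0.72 ± 0.27, the ubiquitin ligase Dtx3l by 0.39 ± 0.14 and the guanylate-binding protein Gbp7 by 0.37 ± 0.14, all with overlap. CCAT2-GT replicates 3 and 4 had the highest interferon scores, 7.75 and 7.71, and replicate 6 the lowest of the 10 mice, 6.70.

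Mitochondrial respiration genes were higher in 34 of 37 cases, 10 with an unadjusted p under 0.05 (background 6.83%) and none without overlap, with a median of 0.26. Atp5b, the catalytic subunit of ATP synthase, ran from 11.13 to 11.67 (median 11.40) against 10.74, 11.04, 10.31 and 11.28. Only CCAT2-T replicate 4 reached the CCAT2-GT range, and the difference was 0.55 ± 0.16 (limma adjusted p = 0.354). Ndufc1 and Ndufa9 of complex I differed by 0.54 ± 0.17 and 0.56 ± 0.19, and Sdhb of complex II by 0.34 ± 0.12. With array spread as a block the list median was 0.09 and Atp5b was 0.50.

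Genes of growth and division were higher to a lesser degree. Myc targets and ribosome biogenesis genes were higher in 30 of 39 cases, 8 with an unadjusted p under 0.05 (background 6.83%), with a median of 0.22 that was 0.04 with the block. Eif4e, the cap-binding factor of translation, differed by 0.53 ± 0.17, Cdk4, a kinase of the start of the cell cycle, by 0.41 ± 0.14, and the nucleolar proteins Nolc1 and Fbl by 0.48 ± 0.18 and 0.43 ± 0.17. In all 4 genes CCAT2-T replicate 4 was the highest CCAT2-T mouse and lay within the CCAT2-GT range. Ribosomal protein genes had a median of 0.10, which was -0.0032 with the block and -0.013 without the narrow arrays, with Rpl27 at 0.26 ± 0.09 and Rpl19 at 0.24 ± 0.09. Mitotic genes were higher in 32 of 41 cases with a median of 0.09, and replication genes in 26 of 38 with a median of 0.08; both medians were below 0 with the block (-0.06 and -0.09). Aurkb, a mitotic kinase, differed by 0.50 ± 0.23 and Rfc3, of the clamp loader, by 0.49 ± 0.19. Pold1, the catalytic subunit of a replicative polymerase, went the other way: it ran from 7.87 to 8.46 (median 8.30) against 8.87, 8.59, 8.97 and 8.52, a difference of -0.48 ± 0.16 without overlap.

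The lists of damage and stress signalling had small medians whose sign depended on the setting. For p53 targets 12 were higher and 12 lower, with Trp53inp1, which promotes autophagy and cell death, at -0.28 ± 0.10 and Rrm2b, a ribonucleotide reductase subunit, at -0.50 ± 0.20. As the mean of their probesets Trp53inp1 was -0.03 and Rrm2b -0.15. DNA repair genes were split 17 to 17, with 4 lower at an unadjusted p under 0.05 (background 5.76%). Lig4, the ligase of end joining that also seals V(D)J breaks, ran from 3.74 to 4.92 (median 4.39) against 5.31, 5.09, 4.81 and 5.12 and differed by -0.68 ± 0.23; only CCAT2-GT replicate 3 reached the CCAT2-T range. Trp53bp1, which protects broken ends, differed by -0.35 ± 0.15, and 3 of its 6 probesets had the other sign. Of 28 immediate-early genes 21 were lower, none with an unadjusted p under 0.05. Their scores spread from 6.41 to 8.41 in CCAT2-GT and from 6.68 to 8.56 in CCAT2-T mice, so both groups held high and low mice. The list median of -0.13 was 0.17 without the stroma-rich arrays, -0.45 with array spread as a block and -0.69 without the narrow arrays. Jund, of the AP-1 complex, differed by -0.71 ± 0.38. NF-kB genes had a median of -0.06, with Nfkb2, a subunit of the non-canonical pathway, at -0.41 ± 0.17.

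The genes tied to the study's theme showed small differences. Myc ran from 7.73 to 8.20 (median 8.08) in CCAT2-GT mice and was 7.31, 7.51, 8.16 and 8.17 in CCAT2-T mice. The difference of 0.24 ± 0.21 had an adjusted p of 0.587 in limma and was -0.02 with array spread as a block; the 2 low CCAT2-T mice are those arrays. Pvt1, the non-coding neighbour of Myc, ran from 4.98 to 6.28 against 5.65, 5.44, 5.75 and 5.21 and differed by -0.03 ± 0.24, with 3 of its 5 probesets of the other sign. Ezh2, the Polycomb methyltransferase, ran from 8.68 to 9.17 (median 8.96) against 9.02, 8.99, 9.39 and 9.37. Its difference was -0.23 ± 0.13 (limma adjusted p = 0.441), with overlap, and was -0.36 with array spread as a block and -0.42 without the narrow arrays.

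Polycomb and chromatin regulators had a median of -0.03. Of 32 members 20 were lower, 4 with an unadjusted p under 0.05 (background 5.76%), and 12 higher, 1 of them with such a p (background 6.83%). Kmt2a, a histone methyltransferase that keeps Hox genes active, ran from 6.35 to 7.15 (median 6.79) against 7.18, 7.16, 7.44 and 7.55 and differed by -0.55 ± 0.22 without overlap. Cbx7, a Polycomb reader, differed by -0.45 ± 0.17 and Dnmt1, the maintenance DNA methyltransferase, by -0.25 ± 0.10. Among signalling and transcription drivers of myeloid malignancy none of 21 had an unadjusted p under 0.05, and their median was 0.13. It was -0.04 with array spread as a block and -0.02 without CCAT2-T replicate 1. Jak2, the kinase of cytokine receptors, differed by 0.23 ± 0.11. Ptpn11, a phosphatase of the Ras pathway, differed by 0.41 ± 0.24 and by 0.04 without the stroma-rich arrays. Splicing factors had a median of 0.04; Ddx41, a helicase, differed by 0.36 ± 0.14 and Prpf40b by -0.27 ± 0.12, the latter without overlap.

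WNT pathway genes and targets were lower in 16 of 27 cases with a median of -0.14, which was -0.07 with array spread as a block and -0.04 without CCAT2-GT replicate 4. Dvl1, which relays the signal from the Frizzled receptors, ran from 7.89 to 8.57 (median 8.32) against 8.86, 8.49, 9.49 and 8.51 and differed by -0.56 ± 0.17, with 1 high mouse, CCAT2-T replicate 3. Znrf3, which removes Frizzled receptors, differed by 0.36 ± 0.16, which was 0.01 as the mean of its probesets.

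RNA editing and modification genes showed no common direction. Of 22 members 9 were higher and 13 lower with a median of -0.04, and 3 of the lower ones did not overlap (background 1.44%). Apobec2, a member of the cytidine deaminase family found in muscle, ran from 4.97 to 5.12 (median 5.00) in CCAT2-GT mice and was 5.41, 5.35, 5.46 and 5.14 in CCAT2-T mice, -0.31 ± 0.09 (limma adjusted p = 0.354). Apobec3, a deaminase that restricts retroviruses, ran from 7.29 to 7.85 (median 7.54) against 7.91, 8.16, 8.13 and 8.21, -0.53 ± 0.22 (limma adjusted p = 0.372). In both genes every CCAT2-GT mouse was below every CCAT2-T mouse, as for Wtap, a subunit of the RNA methyltransferase complex, at -0.24 ± 0.10, named after its values were seen. Adat2, a deaminase of transfer RNA, differed by 0.40 ± 0.16. Adar, the adenosine deaminase of double-stranded RNA, ran from 6.49 to 7.12 (median 6.94) against 6.85, 6.75, 7.34 and 7.14, a difference of -0.12 ± 0.14 inside the spread of the mice.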

How the data were processed

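Bone marrow of 18 mice was measured, 1 array per mouse. The authors deposited log2 expression values for 45101 probesets, normalized with RMA per the submitters' processing notes. Neither version nor probe definition file is named in the sources used here, and the log2 scale was inferred from the range of the deposited values.

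In the platform annotation 34958 probesets had a single gene symbol and were used, while 932 had several and 9211 none. Of 18194 genes, 9012 had more than 1 probeset and took the brightest. A filter at the 30th percentile of the probeset means (3.30) kept 14505 genes. Differences (CCAT2-GT minus CCAT2-T) came from limma 3.58.1 under R 4.3.3: lmFit on 18 arrays in 4 groups, then eBayes with a mean trend, with Benjamini-Hochberg adjustment over all genes and a threshold of 0.05. The procedure was tested on simulated data. Arrays give no read depth; the number of arrays limits the precision.

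The 33 lists (930 of 1014 entries matched) and the members were chosen with earlier results of these data known. No list was tested. The genes named were the 10 of smallest p in each direction, without predicted, immunoglobulin, T-cell receptor and sex-linked genes, from each list up to 4 members by p, and 19 genes whatever their values. Others are marked where they appear. Same-numbered mice of both groups did not deviate together (correlations -0.36, -0.10, 0.05 and 0.04), so the numbers were not used as pairs. Alternatives covered filters, scaling, the choice of probeset, the model, the arrays in it, covariates and each mouse left out. Those on narrow, Xist-high and stroma-rich arrays and on the immediate-early and stroma scores were chosen after seeing the data. Motifs were searched in RefSeq promoters of GRCm38.p6.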

Additional observations from a re-analysis of the deposited data

Results flagged for a closer look

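In 14 of 284 groups of values tested, 1 mouse stood apart from the rest of its group; chance flags about 1 in 20 groups. CCAT2-T replicate 3 accounted for 6 of them. It was the highest CCAT2-T mouse for Il2rb (6.93), Jund (10.96) and Nfkb2 (7.15) and the lowest for Cecr2 (5.12), Olfm4 (9.23) and Klf1 (9.67). It was also the only Xist-high mouse of its group. CCAT2-T replicate 4 stood above its group for Tcf3 (7.67) and Fbl (9.40), and CCAT2-T replicate 1 below it for the plasma cell score (6.82).

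In the CCAT2-GT group, replicate 2 stood highest for the stress-response score (8.66), replicate 3 highest for Eomes (6.07) and lowest for Aurkb (7.74), and replicate 6 lowest for Hoxb4 (4.33) and Ltf (12.26).

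Of 5570 probesets with no single gene symbol that were tested, 1 passed an adjusted p of 0.05 when every probeset was tested with limma (1 of 31571, 0.00317%). This probeset, 1426174_s_at, differed by 3.17 ± 0.44 (SE; limma adjusted p = 0.0310). It was 10.14, 12.34, 9.49, 10.21, 9.76 and 10.22 in CCAT2-GT replicates 1 to 6 and 6.62, 7.50, 6.33 and 8.30 in CCAT2-T replicates 1 to 4. The highest of the WT and CCAT2-G mice was at 8.52, so all 6 CCAT2-GT mice lay above the other 12. A second, 1424631_a_at, differed by 2.43 ± 0.39 (limma adjusted p = 0.0748), with the lowest CCAT2-GT mouse at 10.22 and the highest of the others at 9.63. The annotation used here gives neither a single gene, so both stand outside the 14505 genes.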

How the results depend on the processing

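The counts of genes past a threshold, the list medians and the 112 named genes were recomputed under 31 alternatives where a value could be had, and the counts also with every probeset. Counts within lists and counts without overlap were not recomputed. No gene passed the adjusted test under any of them except 2 with array weights (Cdk3 at -0.71, limma adjusted p = 0.0485, and 6820431F20Rik at 0.98) and 1 probeset when every probeset was tested. The smallest adjusted p reached 0.0884 without CCAT2-G mice in the model. Without 1 mouse at a time 0 genes passed, and the genes with an unadjusted p under 0.05, 1827 on all arrays, numbered 1119 (without CCAT2-T replicate 1) to 2464 (without CCAT2-T replicate 4). They were 3793 with array weights, 517 with only the CCAT2-GT mice of identifier letter G, 1166 with the narrow arrays as a block, 932 without the stroma-rich arrays and 4280 with every probeset. With the replicate number as a block (pairing by number) there were 1803 and 0 passed. No CCAT2-T mouse correlated best with the CCAT2-GT mouse of its own number, so the number was not used as a pairing. Such correlations cannot exclude one. The filter at the 50th percentile left 939 higher and 596 lower, median centring 1017 and 689, and leaving out the narrow arrays 404 and 861. The cause of these shifts was not tested.

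Of 1023 recomputed list medians 1000 stayed within 1 SD of the mice's scores. Part of this was fixed in advance: another form of eBayes, or leaving WT or CCAT2-G mice out, cannot change a difference of group means. Even so 22 of 33 lists changed sign under at least 1 alternative, most often DNA repair (13 of 31), NF-kB (10), p53 targets (9), immediate-early genes (8) and sex-linked genes (8). Of 3466 recomputed values of 112 named genes 3423 kept their sign and their side of the threshold. The same alternatives could not change these differences either, and no gene had passed on all arrays. Signs turned in 11 genes, none of which had an unadjusted p under 0.05 on all arrays. Without the narrow arrays Myc was -0.13, Pvt1 0.0088, Mpo -0.0020, Elane -0.056, Kit -0.12, Cd34 -0.46, Xist -0.55 and Eif2s3y 0.089. With narrow spread as a block Myc was -0.021, Elane -0.028, Kit -0.086 and Cd34 -0.41. Without the stroma-rich arrays Elane was -0.14, Ltf 0.066 and Gata1 -0.070, and with the stroma score as a covariate Ltf was 0.077 and Gata1 -0.023. With letter G mice only, Elane was -0.054, Ltf 0.10 and Gata1 -0.10. With array weights Adar was 0.027 and Elane -0.18; with the replicate block Adar was 0.00023 and Ltf 0.12. Pvt1 was 0.0027 after median centring and 0.069 as the mean of probesets, and Elane -0.044 after quantile normalization. As the mean of probesets some differences shrank, such as Bcl7a (-0.42), Eif4e (0.15), Rpl27 (0.070), Ptpn11 (0.16) and Znrf3 (0.015). So did Xrn2 (0.31), Add1 (-0.40), Ddc (-0.36), Fcgr1 (0.55) and Edem2 (0.23). Others grew, such as Myct1 (0.91) and Fbl (0.53). Xist was -0.14 with the sex score (Xist minus Eif2s3y) and -0.014 without the Xist-high arrays. Without 1 mouse at a time Pvt1 ran from -0.19 to 0.074, Elane from -0.19 to 0.31, Ltf from -0.15 to 0.084 and Cd34 from -0.12 to 0.31. The cause was not tested. Precision is limited by the number of mice: the median SE of a gene was 0.15.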

Other observations

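Genes that share a symbol stem were summarised for the 194 stems with 10 or more tested genes, a grouping chosen after seeing the data. All 29 Mrps genes, mitochondrial ribosomal proteins of the small subunit, had a higher mean in CCAT2-GT marrow, beside 47.6% of all genes. Their median was 0.22, and other stems such as Ndufa (0.26), Commd (0.25) and Fkbp (0.25) had larger ones. Of 47 Mrpl genes, of the large subunit, 41 were higher, with a median of 0.20. The exosome subunits Exosc were higher in 10 of 10 cases (median 0.22), the proteasome subunits Psmb in 9 of 10 (0.29) and Psmd in 13 of 14 (0.24), and the import proteins Timm in 11 of 14 (0.25). With the narrow arrays as a block these medians were 0.09 for Mrps, 0.06 for Mrpl, 0.07 for Exosc, 0.14 for Psmb, 0.12 for Psmd and 0.09 for Timm.

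In the other direction, the stem Trp had the lowest median, -0.28 with 10 of 10 genes lower, and -0.15 with the block. Next were Wnt (10 of 13, -0.24, -0.04 with the block), Tcf (9 of 11, -0.20, -0.14) and Bcl (14 of 19, -0.20, -0.15). Among stems with less low medians, 8 of 10 Hdac genes, histone deacetylases, had a lower mean. Their median was -0.14, and -0.15 with the block. Of 17 Kdm genes, histone demethylases, 13 were lower (median -0.12, and -0.15 with the block), and of 10 Cnot genes, of the deadenylase complex, 8 were lower (-0.12, and -0.19). Krt genes, keratins, were lower in 24 of 29 cases (-0.12), but their median was 0.03 with the block. No test of a family was made.

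The mature B-cell and B-cell precursor scores also varied in the groups outside the comparison. CCAT2-G replicate 3 scored 6.56 and 5.93, while the other CCAT2-G mice lay between 8.11 and 8.51 for mature B cells and between 7.88 and 7.96 for precursors. Among WT mice the narrow arrays scored 8.42 and 8.27 for mature B cells and the other two 7.16 and 6.60.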
